A study of Mus musculus with 3 samples.

Results

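The 49 cell cycle genes described here are mouse genes whose products copy DNA, build the mitotic spindle, drive the cell through division or hold it back. They were taken by symbol from the count tables, and all 49 were found among the 31053 genes listed. Of these, 16 act mainly in S phase, 25 mainly in G2 and mitosis (G2/M), 3 encode D cyclins and 5 encode inhibitors of cyclin-dependent kinases (CDKs). Masses grown from implants in CD1 mice, a stock of outbred mice, were collected on day 5 and their cells sequenced as 3 single-cell libraries, 1 per group. The Matrigel library came from implants of Matrigel, a basement membrane gel, with nothing added. The IgG library came from implants of Matrigel with recombinant human BMP2, a bone-inducing growth factor, in mice given a pre-immune IgG systemically, and the antibody library from BMP2 implants in mice given a systemic antibody that neutralizes activin A, a TGF-beta family ligand. Since no IgG is named for Matrigel alone, any comparison with it cannot tell BMP2 from IgG, and how many animals each library holds is not stated.

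A dividing cell passes from G1 into S phase, where DNA is copied, and through G2 into mitosis. D cyclins with CDK4 or CDK6 start the passage by inactivating the retinoblastoma protein, which frees E2F factors to switch on S phase genes. G2/M genes are switched on later through CHR and CCAAT promoter elements, and CDK inhibitors such as p21 and p27 slow or stop the passage. In a healing or ossifying mass, fibroblast-like mesenchymal cells and macrophages are both known to divide in the tissue.

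Both kinds of element were looked for in the promoters of these genes. RefSeq start sites (build GRCm38.p6) were matched for 40 of the 49 genes, and the 250 bases before the first-listed start were searched on both strands. CCAAT was present in 19 of 22 G2/M promoters (86.4%) and 9 of 13 S phase promoters (69.2%), against 34.5% of all 27025 genes. A CHR core, TTTGAA or TTCGAA, was present in 9 of 22 G2/M promoters (40.9%) and 2 of 13 S phase promoters (15.4%), against 17.4% of all genes. An E2F site (TTTCCCGC, TTTCGCGC, TTTGCCGC or TTTGGCGC) was present in 4 of 13 S phase promoters (30.8%) and 2 of 22 G2/M promoters (9.09%), against 1.91% of all genes. Of the 40 windows, 9 lie for at least 0.5 of their length in annotated exons, 4 of them (Cdca3, Mcm7, Nusap1 and Prc1) wholly, so not all are promoter sequence alone. A match is a description of letters and does not show that a factor binds there. The promoters of Top2a, Mki67 (G2/M) and Mcm6 (S phase) are shown because they hold several of these elements, each read 5′ to 3′ on the minus strand, with every CCAAT, CHR and E2F match on either strand in capitals. The Top2a promoter (chr11:99024190-99024439) held 6 CCAAT and 4 CHR matches, the Mki67 promoter (chr7:135716380-135716629) held 3 CCAAT and 2 CHR matches, and the Mcm6 promoter (chr1:128359706-128359955) held 2 CCAAT matches, no CHR match and 3 E2F matches, of which a pair overlap.
Top2a: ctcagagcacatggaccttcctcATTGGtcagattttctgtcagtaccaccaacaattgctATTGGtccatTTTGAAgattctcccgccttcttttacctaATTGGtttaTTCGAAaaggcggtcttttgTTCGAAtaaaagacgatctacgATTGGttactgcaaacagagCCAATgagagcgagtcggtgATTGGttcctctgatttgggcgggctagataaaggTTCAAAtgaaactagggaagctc
Mki67: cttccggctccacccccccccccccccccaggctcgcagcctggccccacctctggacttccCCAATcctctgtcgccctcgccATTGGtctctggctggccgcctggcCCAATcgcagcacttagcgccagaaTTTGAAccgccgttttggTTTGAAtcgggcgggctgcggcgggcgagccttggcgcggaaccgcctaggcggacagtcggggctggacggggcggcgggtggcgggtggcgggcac
Mcm6: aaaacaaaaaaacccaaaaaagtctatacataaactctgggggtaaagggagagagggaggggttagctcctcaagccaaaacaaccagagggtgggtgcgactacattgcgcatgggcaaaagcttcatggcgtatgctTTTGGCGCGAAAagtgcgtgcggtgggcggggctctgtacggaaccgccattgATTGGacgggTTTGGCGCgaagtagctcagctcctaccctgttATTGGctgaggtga

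Counts are unique molecular identifiers (UMIs), which mark captured transcript 3′ ends, and levels are UMIs of a gene per 1000000 UMIs of the cells of a class (CPM). The libraries held 9223, 5958 and 5967 cells after filters (Matrigel, IgG and antibody) with median depths of 3400, 4194 and 3683 UMIs, and between 7 and 19 cell barcodes were shared by any pair of libraries. Cells were called mesenchymal where Col1a1, Col1a2 and Col3a1 made up at least 1% of UMIs, and the others were called by marker genes, with 2.34% to 2.87% of cells left out because they carried markers of 2 classes. Mesenchymal cells numbered 1960, 1436 and 587 in the 3 libraries, macrophages 6429, 3548 and 3354, dendritic cells 151, 90 and 51, T cells 65, 180 and 870, and B cells 1, 6 and 531. The median mesenchymal cell had 81.8% to 90.9% of the mesenchymal markers and 8.33% of the macrophage markers, and the median macrophage had 75% of the macrophage markers. With 1 library per group no test between groups is possible. The ranges in brackets are 95% intervals for counting error only, and a gene was counted as higher or lower where its CPM differed at least 1.5-fold between 2 libraries that together held at least 20 of its UMIs. Comparisons with the antibody and with Matrigel share the IgG library, so they are given side by side and are not independent.

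**Figure D1:**
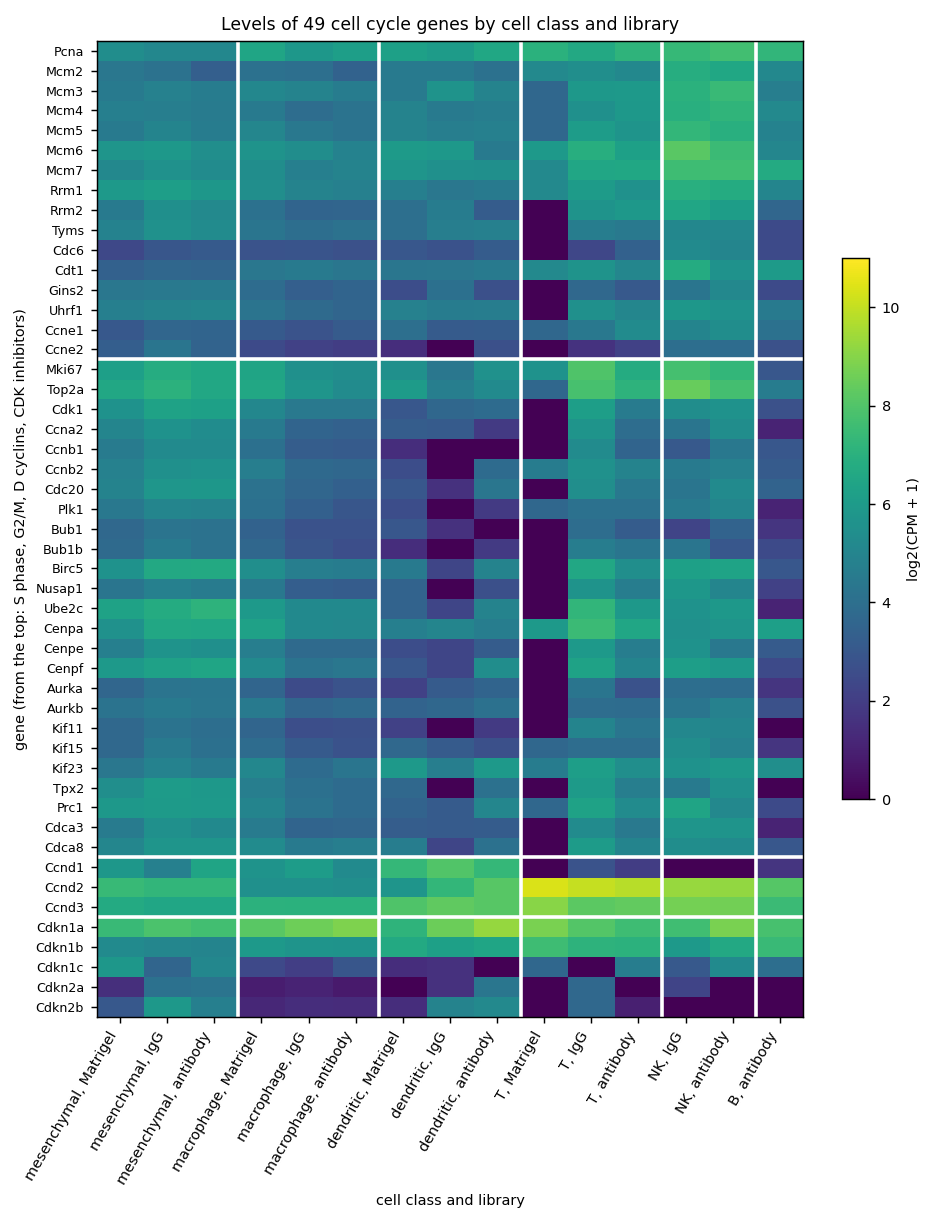
Colour gives log2(CPM + 1) for each of the 49 genes (rows) in each cell class and library with at least 50 cells (columns). Among mesenchymal columns most G2/M rows are dimmest with Matrigel, among macrophage columns they are brightest with Matrigel, and Ccnd1 is dark in T, NK and B cells, where Ccnd2 is bright.

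Mesenchymal cells of the IgG library carried more S and G2/M transcripts than those of the Matrigel library, and the difference lay mostly in the G2/M genes. The summed level of the 25 G2/M genes was 879 CPM (866 to 893) with Matrigel, 1370 CPM (1356 to 1385) with IgG and 1286 CPM (1265 to 1306) with the antibody. The ratio of IgG to Matrigel was 1.56 (1.53 to 1.59). The summed level of the 16 S phase genes was 404 CPM (395 to 413), 494.5 CPM (486 to 503) and 413 CPM (402 to 425), a ratio of IgG to Matrigel of 1.23 (1.19 to 1.26). By summed UMIs the antibody library stayed close to the IgG library for G2/M genes, with a ratio of 0.938 (0.921 to 0.956). For S phase genes it was within counting error of the Matrigel library, with a ratio to Matrigel of 1.02 (0.987 to 1.06). Part of each sum rests on few cells. For each G2/M gene, 10 of the 587 antibody cells held from 23.5% (Ccnb2) to 43.1% (Nusap1) of its UMIs. With IgG, 10 of 1436 cells held from 8.90% (Birc5) to 21.5% (Nusap1). Because 10 cells are a larger part of the smaller class, these shares do not show which library is the more concentrated. With each cell weighted equally, the ratio of antibody to IgG for S and G2/M genes together was lower, as given in the last section. These sums run over all cells of a class, so more cycling cells and more transcripts per cycling cell cannot be told apart in them. Of all 49 genes, 23 were higher and 2 lower with IgG than with Matrigel, where 15.1% of all 13706 genes measured were higher and 20.7% lower. All 49 passed the UMI minimum. The 23 comprised 16 of 25 G2/M genes, 5 of 16 S phase genes and 2 of 5 CDK inhibitors. The median log2 ratio was 0.62 for G2/M genes and 0.31 for S phase genes, against -0.04 for all genes.

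The 5 S phase genes that were higher in mesenchymal cells with IgG than with Matrigel were Tyms, Rrm2, Ccne1, Ccne2 and Cdc6, which act in nucleotide supply, S phase entry and helicase loading. Rrm1, the large subunit of ribonucleotide reductase, stood at 59.9 CPM with Matrigel, 70.0 CPM with IgG and 55.8 CPM with the antibody. Tyms, which makes thymidylate, stood at 28.4, 45.9 and 38.1 CPM in the same order, 1.61-fold (1.46 to 1.79) higher with IgG than with Matrigel. Rrm1 and Tyms were both highest in the IgG library. Rrm2, the small subunit of the reductase, was 1.97-fold (1.76 to 2.21) higher with IgG. Ccne2, a cyclin that fires S phase entry with CDK2, was 2.06-fold (1.72 to 2.48) higher with IgG and 0.558-fold (0.454 to 0.682) as high with the antibody as with IgG. Ccne1, its paralog, was 1.59-fold (1.29 to 1.97) higher with IgG than with Matrigel, and Cdc6, a helicase loader, 1.58-fold (1.21 to 2.10).

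The 6 subunits of the MCM helicase, which opens DNA at replication forks, gave ratios of IgG to Matrigel from 0.858 (0.743 to 0.991) for Mcm2 to 1.37 (1.21 to 1.55) for Mcm5, so none reached 1.5-fold. Mcm6 stood at 52.7, 57.3 and 41.8 CPM with Matrigel, IgG and the antibody, and Mcm7 at 34.2, 45.7 and 39.1 CPM. Mcm2 stood at 19.4, 16.6 and 8.99 CPM, lowest in the antibody library at 0.540-fold (0.434 to 0.668) of IgG. Of its 109 UMIs in the antibody library, 33.9% came from 10 cells. Pcna, the sliding clamp of the DNA polymerases, was lower in both BMP2 libraries than with Matrigel, at 41.5, 33.5 and 32.7 CPM, with a ratio of IgG to Matrigel of 0.808 (0.732 to 0.892).

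The G2/M genes of mesenchymal cells stood higher in both BMP2 libraries than with Matrigel, apart from Top2a. The antibody and Matrigel intervals nevertheless overlap for Bub1b, Aurkb, Kif11, Kif15, Kif23 and Prc1. Top2a, the topoisomerase that untangles sister chromatids, stood at 96.6 CPM with Matrigel, 134 CPM with IgG and 95.5 CPM with the antibody. Its antibody level was within counting error of its Matrigel level, and 0.711-fold (0.665 to 0.760) of its IgG level. Mki67, the Ki-67 proliferation antigen, stood at 73.4, 111 and 92.2 CPM, and was 1.51-fold (1.42 to 1.62) higher with IgG than with Matrigel. Cenpa, the histone variant of centromeres, stood at 46.7, 97.1 and 91.2 CPM, and Birc5, a subunit of the chromosomal passenger complex, at 48.5, 98.8 and 101 CPM. These were the G2/M genes that differed most, at 2.08-fold (1.92 to 2.25) and 2.04-fold (1.89 to 2.20). Ube2c, which tags cyclins for destruction at mitotic exit, had the highest ratio of antibody to IgG among them, 1.27 (1.20 to 1.35), at 78.9, 109 and 139 CPM, and 39.3% of its antibody UMIs came from 10 cells. Prc1, which bundles spindle microtubules, had the lowest ratio of IgG to Matrigel, 1.08 (1.003 to 1.17).

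The comparison of antibody with IgG gave few differences of 1.5-fold in mesenchymal cells. Of the 49 genes, 2 were higher, Ccnd1 and Cdkn1c, and 3 were lower, Mcm2, Ccne2 and Cdkn2b, where 9.65% of all genes were higher and 11.6% lower. None of the 25 G2/M genes reached 1.5-fold in either direction, with a median log2 ratio of -0.09 against -0.08 for all genes. Against Matrigel, the antibody library had 16 genes higher and 2 lower, where 10.9% of all genes were higher and 21.3% lower, and 11 of the 16 were G2/M genes.

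**Figure D2:**
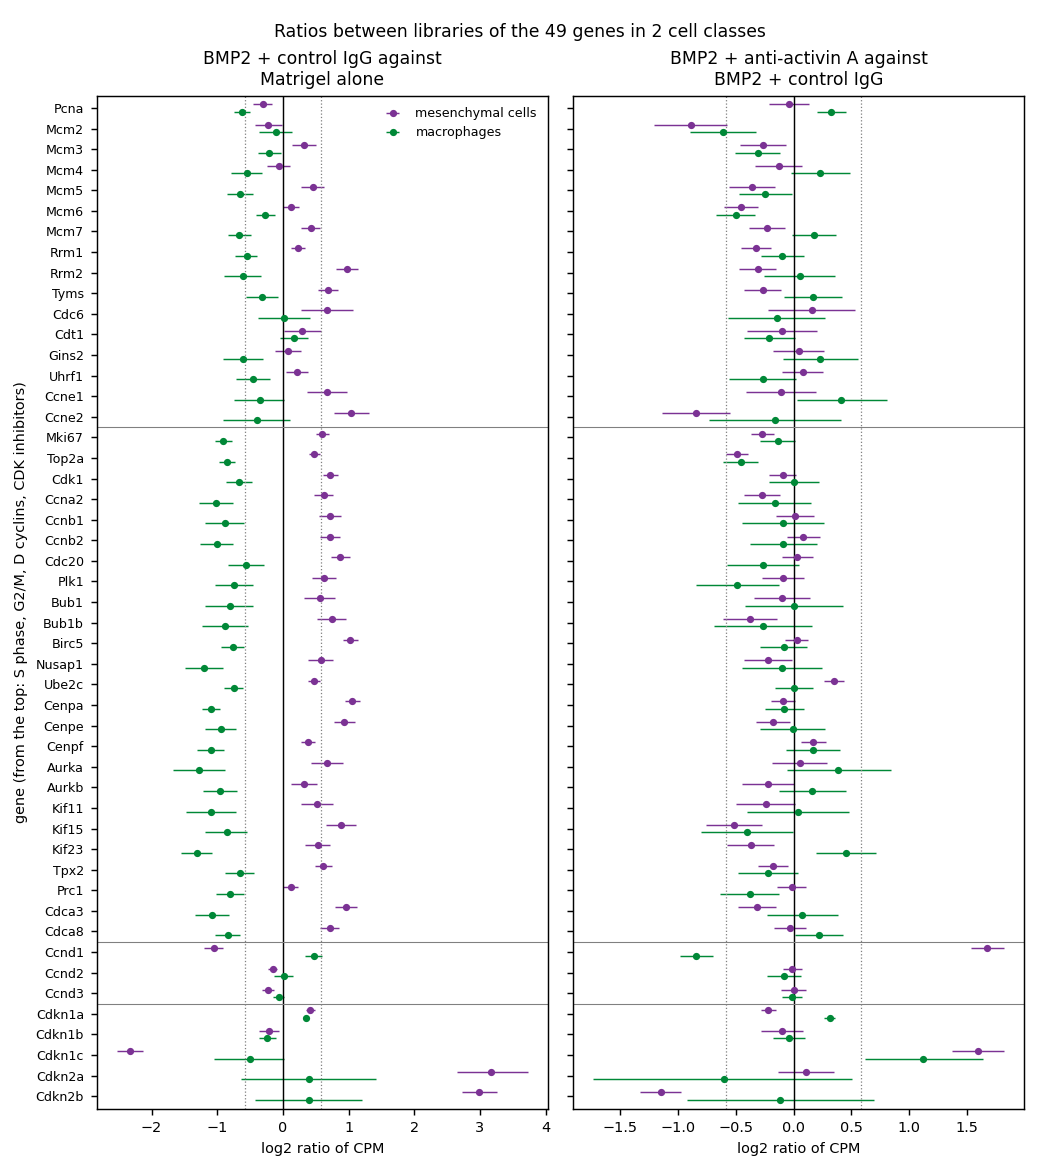
Points give the log2 ratio of CPM of each of the 49 genes between 2 libraries, with 95% counting intervals, in mesenchymal cells (purple) and macrophages (green); dotted lines mark 1.5-fold. In the left panel the G2/M genes lie right of 0 in mesenchymal cells and left of 0 in macrophages, and in the right panel most lie within the dotted lines, apart from Ccnd1, Cdkn1c, Cdkn2b, Mcm2 and Ccne2 in mesenchymal cells.

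In macrophages the S and G2/M genes stood lower with IgG than with Matrigel, where in mesenchymal cells they stood higher. The summed G2/M level was 799.9 CPM (788 to 812) with Matrigel, 427 CPM (417 to 438) with IgG and 403 CPM (394 to 412) with the antibody, and the ratio of IgG to Matrigel was 0.534 (0.519 to 0.549). The summed S phase level was 426 CPM (417 to 434), 315 CPM (306 to 325) and 307 CPM (299 to 315), a ratio of 0.741 (0.715 to 0.767). The Matrigel library was thus the highest of the 3 for both lists, with intervals that do not meet those of the other two. With IgG against Matrigel, 0 of the 49 genes were higher and 29 lower, where 12.1% of all 12816 genes were higher and 12.2% lower. The 29 were 24 of 25 G2/M genes and 5 of 16 S phase genes, and Cdc20, which activates the anaphase-promoting complex, was the G2/M gene that fell short, at 0.679-fold (0.562 to 0.818). The median log2 ratio was -0.88 for G2/M genes and -0.41 for S phase genes, while the median over all genes was near 0.

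Top2a stood at 94.6 CPM in macrophages with Matrigel, 52.4 CPM with IgG and 38.1 CPM with the antibody. Mki67 stood at 84.3, 44.9 and 40.8 CPM, and Cenpa at 76.6, 35.8 and 33.9 CPM. The Matrigel library was the highest for all 3 genes. Ube2c stood at 61.7, 36.7 and 36.8 CPM and Birc5 at 42.4, 25.01 and 23.6 CPM. In the BMP2 libraries these counts rest on few cells: 10 cells held 46.5% and 47.0% of the Ube2c UMIs with IgG and the antibody. The share was 15.7% with Matrigel, where macrophages were more numerous. Kif23, a kinesin of the cleavage furrow, differed most, at 33.0, 13.3 and 18.2 CPM, a ratio of IgG to Matrigel of 0.403 (0.342 to 0.472).

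The 5 S phase genes that were lower in macrophages with IgG than with Matrigel were Pcna, Mcm5, Mcm7, Rrm2 and Gins2. Pcna stood at 86.5, 56.0 and 70.3 CPM with Matrigel, IgG and the antibody, and Mcm7 at 40.6, 25.6 and 29.0 CPM. Rrm1 stood at 42.6, 29.0 and 27.1 CPM, Mcm6 at 48.8, 40.6 and 28.6 CPM, and Tyms at 18.5, 14.9 and 16.7 CPM. Cdt1 and Cdc6, which load the helicase before S phase, had ratios of IgG to Matrigel of 1.12 (0.972 to 1.30) and 1.01 (0.764 to 1.32), with intervals that include 1.

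Between the antibody and IgG libraries of macrophages, few of the genes differed by 1.5-fold. Of the 49 genes, 1 was higher, Cdkn1c, and 3 were lower, Mcm2, Ccnd1 and Cdkn2a (on 14 and 17 UMIs), where 6.28% of all genes were higher and 11.3% lower. The median gene was shifted in this comparison: the median of ratios, taken only over genes well counted in both libraries, was -0.13 on the log2 scale. The summed ratio of S and G2/M genes was 0.956 (0.932 to 0.981) by total UMIs and 1.04 when scaled to that median, so its direction depends on the scaling. Read against that shift, the median log2 ratio of the G2/M genes, -0.09, was close to the -0.12 of all genes. Against Matrigel, the antibody library had 2 genes higher, Cdkn1a and Cdkn1c, and 30 lower, where 11.1% of all genes were higher and 17.6% lower, and all 25 G2/M genes were among the 30.

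The balance of S phase to G2/M transcripts differed between classes and between libraries. The ratio of the 2 sums depends on which genes make up each list, so only its differences between classes and libraries are read. In mesenchymal cells it was 0.459 (0.447 to 0.472) with Matrigel, 0.361 (0.354 to 0.368) with IgG and 0.322 (0.311 to 0.332) with the antibody. In macrophages it was 0.532 (0.519 to 0.546), 0.739 (0.711 to 0.767) and 0.763 (0.737 to 0.790). In B cells, measured in the antibody library alone, it was 2.46 (2.08 to 2.90), and in natural killer (NK) cells 1.20 (1.04 to 1.37) with IgG and 1.28 (1.11 to 1.47) with the antibody. The ratio was thus higher in B and NK cells than in mesenchymal cells and macrophages of any library. A high ratio was not particular to them. Basophils, used as background below, had 1.92 (1.16 to 3.25) with IgG and 4.56 (2.18 to 10.7) with the antibody. Those basophil values rest on 25 and 9 G2/M UMIs. In the BMP2 libraries the ratio fell below the Matrigel value in mesenchymal cells and above it in macrophages. In T cells it was 1.88 (1.01 to 3.61), 0.442 (0.391 to 0.498) and 0.884 (0.825 to 0.947), where the Matrigel value rests on few UMIs and the IgG value lies in the range of the mesenchymal values. In dendritic cells the ratio was 1.13 (0.936 to 1.36), 2.26 (1.77 to 2.90) and 0.866 (0.687 to 1.09).

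The share of cells with 3 or more of the 41 S and G2/M genes detected counts cells and does not sum their transcripts; such cells are called cycling below. Because deeper cells show more genes, every cell was thinned to 1000 UMIs, and shares are means over 20 thinnings. In mesenchymal cells the share was 9.28% (8.02 to 10.7) with Matrigel, 19.2% (17.1 to 21.3) with IgG and 15.1% (12.3 to 18.3) with the antibody. Without thinning it was 31.6%, 65.3% and 55.4%, at median depths of 8660, 16908 and 18860 UMIs. In macrophages it was 6.51% (5.90 to 7.16), 2.64% (2.14 to 3.25) and 2.29% (1.81 to 2.88), and without thinning 15.9%, 13.9% and 19.5% at 2983, 3450 and 4577 UMIs. The order of the macrophage libraries therefore differed between thinned and unthinned cells, and the summed CPM had the order of the thinned cells. Thinning left out 78, 36 and 18 mesenchymal cells and 388, 192 and 133 macrophages. Basophils, mature cells that seldom divide, served as background and gave 1.30% (0.0367 to 7.81) with IgG and 0.735% (0 to 5.28) with the antibody. These intervals include the macrophage shares of the same libraries, so the background does not set those shares apart. Neutrophils, also planned as background, gave 0%, but only 3 (IgG) and 33 (antibody) of them were deep enough.

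**Figure D3:**
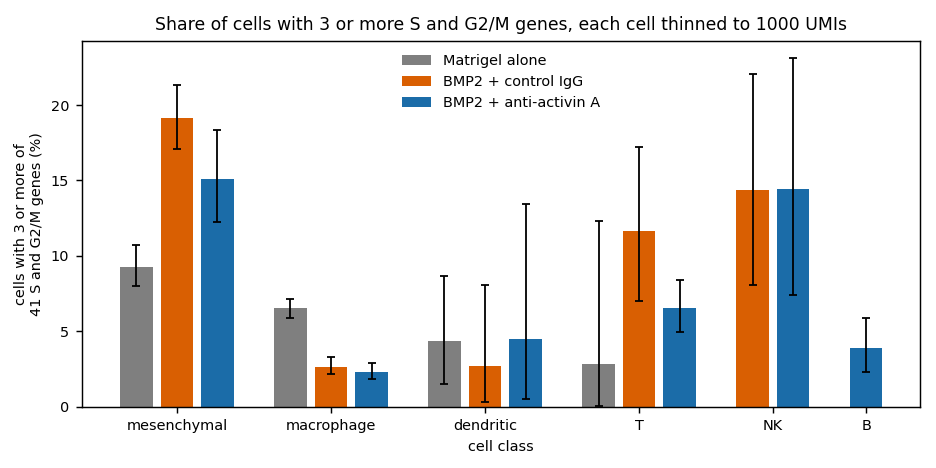
Bars give the share of cells with 3 or more of the 41 S and G2/M genes after thinning to 1000 UMIs, by class and library, with exact 95% binomial intervals. The mesenchymal bars read 9.28%, 19.2% and 15.1% and the macrophage bars 6.51%, 2.64% and 2.29%; the intervals of dendritic, T and NK cells are wide.

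A threshold of 3 genes marks off a range of cells, not a cell type. In 1 thinning, 59, 86 and 31 mesenchymal cells (Matrigel, IgG and antibody, in that order) had exactly 2 of the genes and 39, 55 and 17 had exactly 3, while 141, 205 and 63 had 4 or more. Among macrophages 291, 122 and 88 had exactly 2, 86, 34 and 27 exactly 3, and 305, 55 and 54 had 4 or more. Cells with at least 2 G2/M genes and fewer than 2 S phase genes made up 6.002%, 14.8% and 11.9% of mesenchymal cells, and the reverse kind 3.03%, 3.65% and 3.52%. The intervals of the S phase kind overlap between the 3 mesenchymal libraries, and those of the G2/M kind with Matrigel and IgG do not. Among macrophages the G2/M kind made up 3.85%, 1.63% and 1.48%, and the S phase kind 3.47%, 2.17% and 2.14%.

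Each S and G2/M gene was then compared between cells called from the other 40 genes and the rest, with its own counts left out of the call. The 40 genes of each call are mostly G2/M genes, and cells of the G2/M kind outnumbered those of the S phase kind in mesenchymal cells, so the call itself favours G2/M genes. The 2 lists are given side by side without comparing them. The median G2/M gene was 44.1-fold, 21.8-fold and 20.9-fold higher in the called mesenchymal cells (Matrigel, IgG and antibody, in that order), and the median S phase gene 5.08-fold, 4.14-fold and 2.52-fold. In macrophages the median G2/M gene was 64.2-fold, 64.8-fold and 83.9-fold higher and the median S phase gene 7.76-fold, 8.06-fold and 7.07-fold. Nusap1, which binds spindle microtubules, had the highest ratio in mesenchymal cells with IgG and the antibody, with 91.8%, 95.2% and 94.6% of its UMIs in the called mesenchymal cells, which held 14.1%, 23.0% and 20.3% of all UMIs. Pcna was the least sharp S phase gene in macrophages, with 31.5%, 13.02% and 12.4% of its UMIs in the called cells. Rrm2 had the highest ratio of the S phase genes in both classes and all 3 libraries, from 5.14-fold to 103-fold.

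Cenpa had the lowest ratio of the G2/M genes in macrophages, where it was 5.68-fold, 9.07-fold and 12.5-fold higher in called cells and most of its UMIs lay in the rest. The cycling cells were deeper than the rest in both classes and every library. In mesenchymal cells the median depths were 12600 against 8653 UMIs with Matrigel, 21321 against 16420 with IgG and 30638 against 18166 with the antibody. In macrophages they were 5572 against 3024 UMIs, 8805 against 3541 and 12509 against 4670 in the same order. Cycling mesenchymal cells also carried a median of 16.7% of the macrophage markers, against 8.33% in the rest. The part of depth or of cell doublets in these values was not tested.

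**Figure D4:**
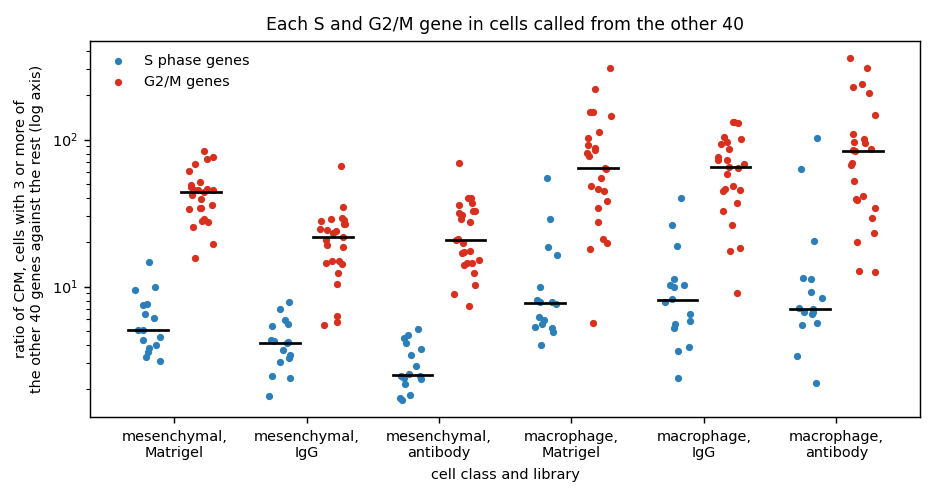
Points give, on a log axis, the ratio of CPM of each gene between cells with 3 or more of the other 40 S and G2/M genes and the remaining cells, by class and library; black bars are medians. G2/M genes (red) have medians of 20.9 to 83.9 and S phase genes (blue) medians of 2.52 to 8.06.

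The D cyclins did not follow the S and G2/M genes. Ccnd1, which encodes cyclin D1, stood in mesenchymal cells at 55.4 CPM (52.0 to 58.9) with Matrigel, 26.7 CPM (24.7 to 28.8) with IgG and 85.6 CPM (80.4 to 90.9) with the antibody. It was lowest in the library whose S and G2/M genes were highest, at 0.482-fold (0.437 to 0.532) of Matrigel, and was 3.20-fold (2.91 to 3.53) higher with the antibody than with IgG. In macrophages the order was turned around, at 48.6, 67.2 and 37.5 CPM, with a ratio of antibody to IgG of 0.558 (0.506 to 0.615). Ccnd2, cyclin D2, stood at 168, 151 and 150 CPM in mesenchymal cells and 44.9, 45.1 and 42.6 CPM in macrophages. Ccnd3, cyclin D3, stood at 105.5, 90.1 and 90.1 CPM in mesenchymal cells and 135, 129 and 128 CPM in macrophages. Ccnd2 and Ccnd3 reached 1.5-fold in neither class.

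Cells with cartilage markers differed in number between the libraries, and in Ccnd1 within the IgG library. Cells whose cartilage markers (Col2a1, Acan and others) reached 0.2% of UMIs numbered 0, 464 and 48 among the mesenchymal cells (Matrigel, IgG and antibody, in that order). Within the IgG library, Ccnd1 stood at 2.53 CPM (1.56 to 3.86) in them and 38.4 CPM (35.5 to 41.5) in the other mesenchymal cells. Without them the ratio of IgG to Matrigel was 0.693 and that of antibody to IgG 2.41, so the first no longer reached 1.5-fold; this exclusion was chosen after seeing the data. The cycling share had overlapping intervals in the IgG cells with and without cartilage markers, at 20.5% (16.8 to 24.4) and 18.6% (16.2 to 21.3), and their G2/M sums were 1571 and 1273 CPM.

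Within a library the D cyclins differed from each other between cycling and other cells. Among mesenchymal cells, Ccnd1 was 3.34-fold (2.92 to 3.802), 1.60-fold (1.36 to 1.89) and 1.34-fold (1.16 to 1.54) higher in cells with 3 or more S and G2/M genes than in the rest, with Matrigel, IgG and the antibody. Ccnd2 was lower in those cells, at 0.596-fold, 0.498-fold and 0.497-fold. In macrophages Ccnd1 was 2.78-fold (2.41 to 3.20), 4.85-fold (4.18 to 5.62) and 9.31-fold (7.97 to 10.9) higher in the cycling cells. Few cells weigh on these values, since 10 macrophages held 7.61%, 14.9% and 26.6% of all macrophage Ccnd1 UMIs in the same order. Ccnd3 lay between 0.859-fold and 1.29-fold in both classes.

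The CDK inhibitors held the highest and the lowest ratio of IgG to Matrigel among the 49 genes in mesenchymal cells. Cdkn2a, whose locus encodes p16Ink4a and p19Arf, which 3′ counts cannot tell apart, stood in mesenchymal cells at 1.81 CPM (1.25 to 2.55) with Matrigel, 16.3 CPM (14.8 to 18.0) with IgG and 17.6 CPM (15.3 to 20.1) with the antibody. It was 9.002-fold (6.31 to 13.3) higher with IgG than with Matrigel, from 33 to 416 UMIs, and its antibody level was within counting error of IgG. Cdkn2b, its neighbour that encodes p15Ink4b, stood at 7.14 CPM (5.97 to 8.48), 56.7 CPM (53.8 to 59.7) and 25.6 CPM (22.8 to 28.6). It was 7.94-fold (6.63 to 9.58) higher with IgG than with Matrigel and 0.451-fold (0.397 to 0.510) as high with the antibody as with IgG. The genes are neighbours at chr4:89274471-89294653 and chr4:89306299-89311039 (GRCm38, minus strand). In macrophages both stood under 2 CPM in every library.

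Cdkn1c, which encodes p57Kip2, had the reverse order in mesenchymal cells, at 55.6 CPM (52.3 to 59.2) with Matrigel, 11.1 CPM (9.81 to 12.4) with IgG and 33.5 CPM (30.3 to 36.9) with the antibody. The ratio of IgG to Matrigel was 0.199 (0.174 to 0.227) and that of antibody to IgG 3.03 (2.59 to 3.53). In the antibody library 46.1% of its UMIs came from 10 of 587 cells. The share in 10 cells was 36.5% with IgG (1436 cells) and 9.58% with Matrigel (1960 cells). It was also lower in cycling mesenchymal cells than in the rest, at 0.432-fold, 0.395-fold and 0.140-fold. In macrophages it stood at 4.38, 3.08 and 6.70 CPM, 2.17-fold (1.54 to 3.11) higher with the antibody than with IgG on 125 and 46 UMIs.

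Cdkn1a, the p53 target that encodes p21, stood in mesenchymal cells at 176, 235 and 202 CPM and in macrophages at 294, 375 and 466 CPM. In macrophages its level was lowest with Matrigel, where the G2/M sum was highest. In mesenchymal cells it was also lowest with Matrigel, but there the G2/M sum was lowest, and both were highest with IgG. Cycling macrophages had 0.843-fold (0.773 to 0.918), 0.609-fold (0.529 to 0.699) and 0.602-fold (0.538 to 0.672) of the level in the rest. Cdkn1b, which encodes p27, reached 1.5-fold in neither class, at 37.4, 32.3 and 30.1 CPM in mesenchymal cells and 60.5, 51.3 and 49.97 CPM in macrophages.

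**Figure D5:**
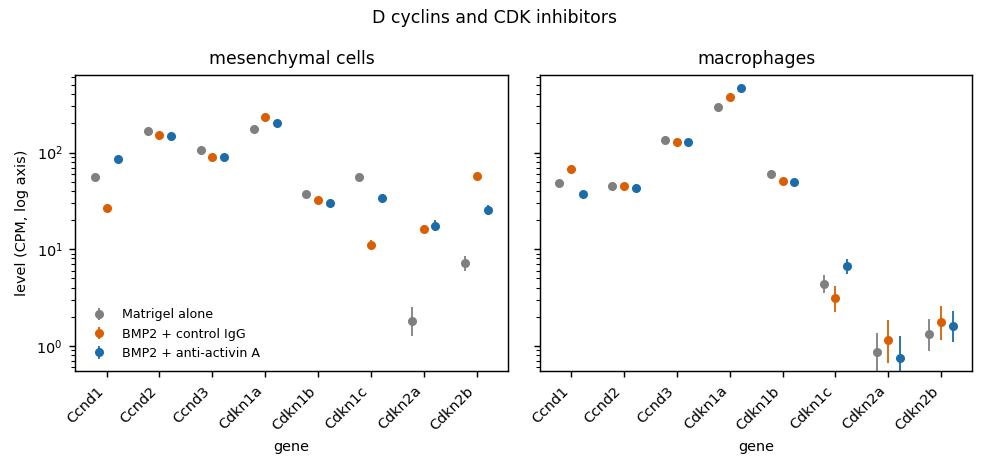
Points give the level (CPM, log axis, with 95% counting intervals) of the D cyclins and CDK inhibitors in each library, in mesenchymal cells (left) and macrophages (right). In mesenchymal cells Ccnd1 and Cdkn1c are lowest and Cdkn2b highest with IgG, and Cdkn2a is at 1.81 CPM with Matrigel and above 16 CPM in both BMP2 libraries.

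T, NK and B cells had few or no Ccnd1 transcripts and many Ccnd2 transcripts. Ccnd2 stood at 1322, 1057 and 890 CPM in T cells (Matrigel, IgG and antibody, in that order) and at 270 CPM (237 to 307) in B cells. Ccnd1 had 0, 3 and 6 UMIs in the same T cells and 2 UMIs in B cells, and 0 in NK cells of the IgG and antibody libraries, where the upper limits of the intervals are 13.7 and 12.6 CPM. In dendritic cells Ccnd1 stood at 159, 256 and 162 CPM and Ccnd2 at 53.1, 152.5 and 280 CPM. Cdkn1a in dendritic cells stood at 140.5, 364 and 609 CPM, in the same order over libraries as in macrophages.

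T cells of the IgG library had high G2/M levels. The sum was 201 CPM (117 to 321) with Matrigel on 17 UMIs, 1781 CPM (1666 to 1903) with IgG and 862 CPM (822 to 903) with the antibody. The IgG value rests on few cells, since 10 of the 180 T cells held 84.1% of the G2/M UMIs. Those 10 had a median of 79.2% of the T cell markers and 27.3% of the mesenchymal markers. Over all T cells of that library the medians were 58.3% and 18.2%. The 10 cells were also deeper, with a median of 7895 UMIs against 2254, and deeper cells show more genes. Their median collagen share was lower, at 0.025% of UMIs against 0.051%. In the antibody library 10 of 870 cells held 52.4%. With antibody against IgG, 21 of 25 G2/M genes were lower, where 13.1% of all genes were higher and 25.3% lower, and the summed S phase ratio was 0.968 (0.866 to 1.08). The share of T cells with 3 or more genes was 2.79% (0.0589 to 12.3), 11.6% (6.99 to 17.2) and 6.54% (4.93 to 8.40), and the intervals of the BMP2 libraries overlap.

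B cells, nearly all in the antibody library, had an S phase sum of 571 CPM (522 to 623) and a G2/M sum of 232.5 CPM (202 to 267). The basophils of that library, the background class, had 279 CPM and 61.2 CPM. In B cells Pcna stood at 150 CPM and Mcm7 at 104 CPM, while Mki67 stood at 6.84 CPM, Top2a at 23.9 CPM and Ube2c at 1.14 CPM. The share of B cells with 3 or more genes was 3.87% (2.31 to 5.89). NK cells gave 14.4% (8.06 to 22.1) with IgG and 14.4% (7.42 to 23.1) with the antibody. In dendritic cells the shares were 4.32% (1.51 to 8.67), 2.70% (0.280 to 8.06) and 4.51% (0.479 to 13.5), with intervals that overlap, and only 4 of 25 G2/M genes had 20 UMIs in the comparison of IgG with Matrigel.

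Cell cycle genes outside the 49 were counted from 3 further lists. They are given for IgG against Matrigel, where 15.1% of all genes were higher and 20.7% lower in mesenchymal cells, and 12.1% and 12.2% in macrophages. Of 32 other G2/M genes, 11 were higher and 0 lower in mesenchymal cells, and 0 higher and 25 lower in macrophages. H2afz, a histone variant, stood at 301, 726.5 and 664 CPM in mesenchymal cells and 520, 517.5 and 597 CPM in macrophages, and Hmgb2, a chromatin protein of dividing cells, at 107, 248 and 184 CPM and 176.5, 143 and 153 CPM. Of 23 other S phase genes, 4 were higher and 0 lower in mesenchymal cells and 0 higher and 8 lower in macrophages, and the share higher in mesenchymal cells is near that of all genes. Slbp, which binds histone mRNA, and Dut, a dUTPase, had the most UMIs of that list and reached 1.5-fold in neither class. Of 20 cell cycle regulators, p53 targets included, 19 had enough UMIs, and 0 were higher and 3 lower in mesenchymal cells, and 1 higher and 4 lower in macrophages; the share lower in mesenchymal cells is no larger than that of all genes. Among them Cdk4, the partner of D cyclins, stood at 171, 228 and 203 CPM in mesenchymal cells and Btg1, an antiproliferative gene, at 111, 142 and 133 CPM.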

How the data were processed

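Cells of dissociated ectopic masses were sequenced with 10x 3′ chemistry, per the labels' protocols. The deposited matrices hold UMI counts per gene and cell, made with Cell Ranger 3.0.2 and genome build mm10, per the submitters' processing notes; the sources used here do not give the annotation release. Total UMI counts were 44252421 (Matrigel), 46317250 (IgG) and 38163880 (antibody).

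Cells with at least 300 genes, 500 UMIs and at most 15% mitochondrial UMIs were kept (26, 107 and 146 barcodes removed). A cell was mesenchymal at 1% collagen UMIs and otherwise took the class with the highest share of its markers detected, at 25% or more; this scoring was settled after the markers. Cells with 40% of the markers of another class (T and NK cells not set against each other) were left out as possible doublets (216, 171 and 158 cells) and no doublet caller was run; 364, 223 and 180 cells stayed unassigned. UMIs were summed per class and library and scaled to CPM (UMIs per 1000000). Intervals are exact Poisson (levels), conditional binomial (ratios) and Clopper-Pearson (shares), at 95%; the interval of a thinned share uses the mean count over thinnings, rounded. No p-value was computed, because each group has 1 library. The ratio step was tested on simulated Poisson counts of class sums, which leave out the clumping of UMIs in few cells.

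The genes and lists were chosen with earlier results of these data known. Genes with full values are the 5 with the most UMIs in each of the S and G2/M lists, the highest and lowest ratio of each comparison, and all D cyclins and CDK inhibitors; other members were named after their values were seen. Gene positions are from GENCODE M21, which matched all 49 genes by identifier, and promoters are from RefSeq. Alternatives were another collagen minimum, mixed cells kept, no cell filter, equal weight per cell, median-of-ratios scaling, no UMI minimum and other thinning depths. Python 3.11.15, numpy 2.4.6, scipy 1.17.1, pandas 2.3.3 and matplotlib 3.10.9 were used.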

Additional observations from a re-analysis of the deposited data

Results flagged for a closer look

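The ratio of the IgG to the Matrigel library lay on opposite sides of 1 in mesenchymal cells and in macrophages for several of the genes, with counting intervals that exclude 1 in both classes and a difference of 1.5-fold in at least 1 of them. With 1 library per group the difference was not tested. The summed G2/M level had ratios of 1.56 in mesenchymal cells and 0.534 in macrophages, and the sum of S and G2/M genes 1.45 and 0.606. For single genes, given first for mesenchymal cells and then for macrophages, the ratios were 1.51 and 0.532 for Mki67, 1.39 and 0.554 for Top2a, and 2.04 and 0.589 for Birc5. They were 1.39 and 0.596 for Ube2c, 2.08 and 0.468 for Cenpa, and 1.44 and 0.403 for Kif23. Among S phase genes they were 1.34 and 0.631 for Mcm7 and 1.61 and 0.805 for Tyms.

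Ccnd1 went against those genes in both classes, at 0.482 in mesenchymal cells and 1.38 in macrophages. It was the only gene given with full values whose antibody to IgG ratios also met this description, at 3.20 in mesenchymal cells and 0.558 in macrophages.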

How the results depend on the processing

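Of 36 ratios (the sums and each D cyclin and CDK inhibitor), 11 lay on the other side of 1 under at least 1 alternative. One was the macrophage sum of S and G2/M genes for antibody against IgG, which went from 0.956 to 1.04 with median-of-ratios scaling, where the count of lower genes went from 3 to 1. The other 10 were ratios of Ccnd2, Ccnd3, Cdkn1b, Cdkn2a and Cdkn2b that had not reached 1.5-fold, such as Ccnd2 in mesenchymal cells for IgG against Matrigel (0.899, and 1.02 without cells with cartilage markers). Thinning to 500 and to 2000 UMIs moved every share but kept the order of the libraries: mesenchymal shares were 5.66% and 12.6% (Matrigel), 11.2% and 26.5% (IgG), and 8.32% and 20.4% (antibody), and macrophage shares 4.02% and 11.2%, 1.46% and 5.73%, and 1.29% and 4.71%. The mesenchymal sum for IgG against Matrigel, 1.45, was 1.37 with a collagen minimum of 2%, 1.78 with each cell weighted equally, 1.49 with median-of-ratios scaling and 1.38 without cells with cartilage markers, an alternative chosen after seeing the data, under which 1 gene rather than 2 was lower. For antibody against IgG, 0.911, it was 0.853 (2% collagen), 0.811 (equal weight), 0.956 (median of ratios) and 0.973 with mixed cells kept, and the count of lower genes went from 3 to 5 (2% collagen) and 6 (equal weight). With equal weight the macrophage sum for IgG against Matrigel was 0.563 and the genes higher with the antibody went from 1 to 3. The causes were not tested. The remaining 71 alternative values of these results moved by less than their counting interval or, for counts, by less than 1.5 times. One library per group leaves variation between animals unmeasured, and in dendritic and T cells few UMIs per gene limit what can be seen.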
